A study of Arabidopsis thaliana with 4 samples.

Results

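The SABATH carboxyl methyltransferases are plant enzymes that transfer a methyl group to the carboxyl group of small acids. Their transcripts are described here for 10 named loci of *Arabidopsis thaliana*, out of 29030 loci with a probe on the array. They were chosen by locus name, for enzymes whose substrate is known and for close relatives of these: *BSMT1* (AT3G11480), *JMT* (AT1G19640), *IAMT1* (AT5G55250), *GAMT1* (AT4G26420), *GAMT2* (AT5G56300), *FAMT* (AT3G44860), AT3G44870, *PXMT1* (AT1G66700), *NAMT1* (AT5G04370) and AT5G66430. The array carried 17 probes for them, and all 17 are accounted for below. The choice was made with results of the same comparison known, so the values and calls of these loci are a description and not a test of them. The exposed samples were whole seedlings of cultivar Col0, roots and shoots together, 7 days old, kept for 16 h in air shared with the bacterium *Erwinia amylovora* and so exposed to its microbial volatile organic compounds (mVOCs). The control samples were seedlings of the same cultivar and organs without the bacterium. Each group had 4 samples, numbered as biological replicates 1 to 4, and each of the 4 arrays held 1 mVOC-exposed sample labelled with Cy5 and 1 control sample labelled with Cy3. A free-text note on the samples speaks of embryonic stem cells, which contradicts the organism, the source and the array, and it was not used.

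SABATH enzymes take the methyl group from S-adenosylmethionine and turn an acid into its methyl ester. The ester is less polar and often volatile, so that it crosses membranes and can leave the tissue. Several substrates are plant hormones, namely salicylate, jasmonate, auxin and gibberellin, and methylation changes how these move and act. Methylesterases of the MES family include enzymes that hydrolyse such methyl esters and release the free acid. *BSMT1*, on chromosome 3, makes methyl salicylate and methyl benzoate. It was measured by probe A_84_P186914, a designed sequence of 60 bases with 45.0% G and C, printed here because every *BSMT1* value below comes from this stretch alone.
BSMT1 probe A_84_P186914: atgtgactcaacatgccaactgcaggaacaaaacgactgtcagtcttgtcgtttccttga

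On each array 43803 spots were not controls, and their median intensity was 394 to 460 in mVOC-exposed samples and 344.5 to 413 in control samples, over a median local background of 55 to 56 and of 52.5 to 55. A log2 ratio below is mVOC-exposed over control on 1 array, after background correction and normalization, so that positive values mean a higher signal after exposure. No array had the dyes exchanged, so that exposure and dye cannot be told apart for any probe. The number of arrays limits the precision. Replicate 4 stood apart from the others. The local background of its control channel reached 59573 units, against at most 69 units on the other arrays, and the SD of its log2 ratios over all probes was 0.112, against 0.155 to 0.187 on replicates 1 to 3. Without the 194 spots that the scanner software had marked for a non-uniform background on that array, its SD was 0.167. Values are therefore given with and without these spots where the difference matters.

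Of the 17 member probes, 14 were well above background in both samples of all 4 arrays. The other 3, both probes of *GAMT1* and the probe of AT5G66430, were not well above background in any sample. A probe is called here when its limma p is below 0.05 after Benjamini-Hochberg adjustment across 43603 probes. By that rule 6 member probes (1 of *JMT*, 1 of *PXMT1* and both of *FAMT* and of AT3G44870) were called higher in mVOC-exposed seedlings and that of *BSMT1* was called lower, beside 9.62% of all probes called higher and 8.58% called lower. The counts by direction come from the comparison that was known when the loci were chosen, and nothing is read from them. The normalized intensities of the mVOC-exposed samples all lay above those of the control samples for 6 member probes (the same ones, but with *GAMT2* in place of *PXMT1*), beside 7.50% of all probes, and all lay below them for that of *BSMT1*, beside 7.09% of all probes. On all 4 arrays 8 member probes were higher, beside 20.7% of all probes, and 1 was lower, beside 19.3%. The mean log2 ratio was positive for 13 member probes and negative for 4, with a median of 0.10, against a median of 0.00 over all probes tested. With arrays centred on their median in place of loess, 8 member probes were positive and 9 negative, 5 were called higher and 4 lower. Of all 43603 probes, 8783 were called higher and 8417 lower with that centring. The plot of log2 ratios by array shows how wide the family was spread.

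**Figure D1:**
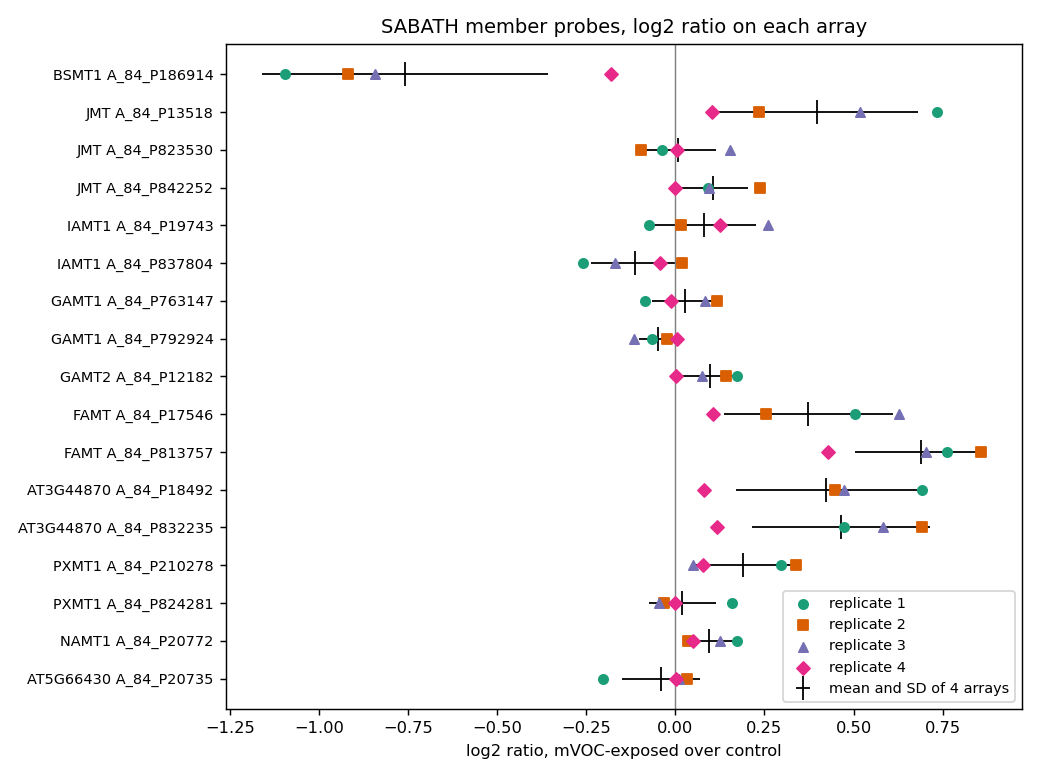
Log2 ratio of mVOC-exposed over control seedlings (horizontal axis) for each of the 17 member probes (rows), with 1 point per array and the mean and SD of 4 arrays as a bar. BSMT1 lies far to the left with a mean of -0.76, while the 5 probes with the highest means belong to FAMT, AT3G44870 and JMT. Replicate 4 lies closer to 0 than the other arrays for all 6 of these probes.

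*BSMT1* gave less signal after exposure on each of the 4 arrays, as did 19.3% of all probes. Its normalized log2 intensity was 7.16, 7.20, 7.26 and 7.57 in the mVOC-exposed samples of replicates 1 to 4, against 8.26, 8.12, 8.10 and 7.75 in their control samples. The groups did not overlap, and both values of replicate 4 lay between those of the other arrays. The log2 ratios were -1.09, -0.92, -0.84 and -0.18, with a mean of -0.76 ± 0.40 (SD, n = 4), or 0.591 of the control level. Only 0.124% of all probes had a mean log2 ratio of that size or more. Without the spots marked for non-uniform background, the log2 ratio of replicate 4 was -0.91 and the mean was -0.94 ± 0.11 (SD, n = 4). The probe is dim, and the size of its ratio moved with the background correction. The scanner software's own log2 ratios were -1.91, -1.84, -1.53 and -1.69, with a mean of -1.74 ± 0.17 (SD, n = 4), or 0.299 of the control level, and plain subtraction of the background gave a mean of -1.43. The direction was the same under every one of the 18 alternatives tried. In RNA from whole seedlings, fewer cells that carry a transcript and less of it per cell cannot be told apart.

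*JMT*, the jasmonate methyltransferase that makes methyl jasmonate, had 3 probes that differed from each other. By A_84_P13518 its log2 intensity was 8.58, 8.42, 8.64 and 8.33 in mVOC-exposed samples, against 7.84, 8.18, 8.12 and 8.22 in control samples, with no overlap between the groups. The mean log2 ratio of this probe was 0.40 ± 0.28 (SD, n = 4), which is 1.32-fold. The means of the other probes were 0.01 ± 0.11 (A_84_P823530) and 0.11 ± 0.10 (A_84_P842252), and the groups overlapped for both. The difference between A_84_P13518 and A_84_P823530 was 0.39 ± 0.28 on the log2 scale and that between A_84_P13518 and A_84_P842252 was 0.29 ± 0.30. Both other probes were dimmer, with mean log2 intensities of 7.17 (A_84_P823530) and 7.20 (A_84_P842252) in mVOC-exposed samples, against 8.49 for A_84_P13518. With plain subtraction their mean log2 ratios were 0.14 and 0.33, and neither was called. A change in *JMT* thus rests on 1 of its 3 probes, whose sequences were not used here.

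*FAMT*, the farnesoic acid methyltransferase, and its relative AT3G44870 are direct neighbours on the chromosome, with no gene between them in the RefSeq annotation of assembly TAIR10.1. All 4 of their probes were higher in mVOC-exposed seedlings on every array, as were 20.7% of all probes. For all 4 the groups did not overlap, beside 7.50% of all probes with all mVOC-exposed samples above. For *FAMT* probe A_84_P813757, the log2 intensity was 10.07, 10.23, 10.21 and 9.95 in mVOC-exposed samples, against 9.31, 9.37, 9.50 and 9.52 in control samples. This was the highest ratio among the members in the main processing, with a mean log2 ratio of 0.69 ± 0.18 (SD, n = 4) or 1.61-fold. Of all probes, 0.179% had a mean of that size or more. In the scanner software's ratio AT3G44870 probe A_84_P18492 was higher, at 0.95 against 0.86. The second *FAMT* probe, A_84_P17546, had log2 ratios of 0.50, 0.25, 0.63 and 0.11, a mean of 0.37 ± 0.24 (SD, n = 4) or 1.30-fold. It is the dimmer probe, and its mean was 0.50 without the marked spots and 0.83 in the scanner software's ratio, against 0.73 and 0.86 for A_84_P813757. The smaller value of A_84_P17546 in the main processing, by 0.32 ± 0.22 on the log2 scale, was thus not seen in the ratios of the software.

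AT3G44870 gave a similar picture with both of its probes. By A_84_P18492 the log2 ratios were 0.69, 0.45, 0.47 and 0.08, with a mean of 0.42 ± 0.25 (SD, n = 4) or 1.34-fold. By A_84_P832235 they were 0.47, 0.69, 0.58 and 0.12, with a mean of 0.47 ± 0.25 (SD, n = 4) or 1.38-fold. These probes differed from each other by -0.04 ± 0.20, less than their spread between arrays. Without the marked spots the means were 0.51 ± 0.12 and 0.55 ± 0.12, and the scanner software's ratios averaged 0.95 and 0.72. Whether probes of *FAMT* and of AT3G44870 also bind each other's transcripts was not tested, since their sequences were not used here.

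**Figure D2:**
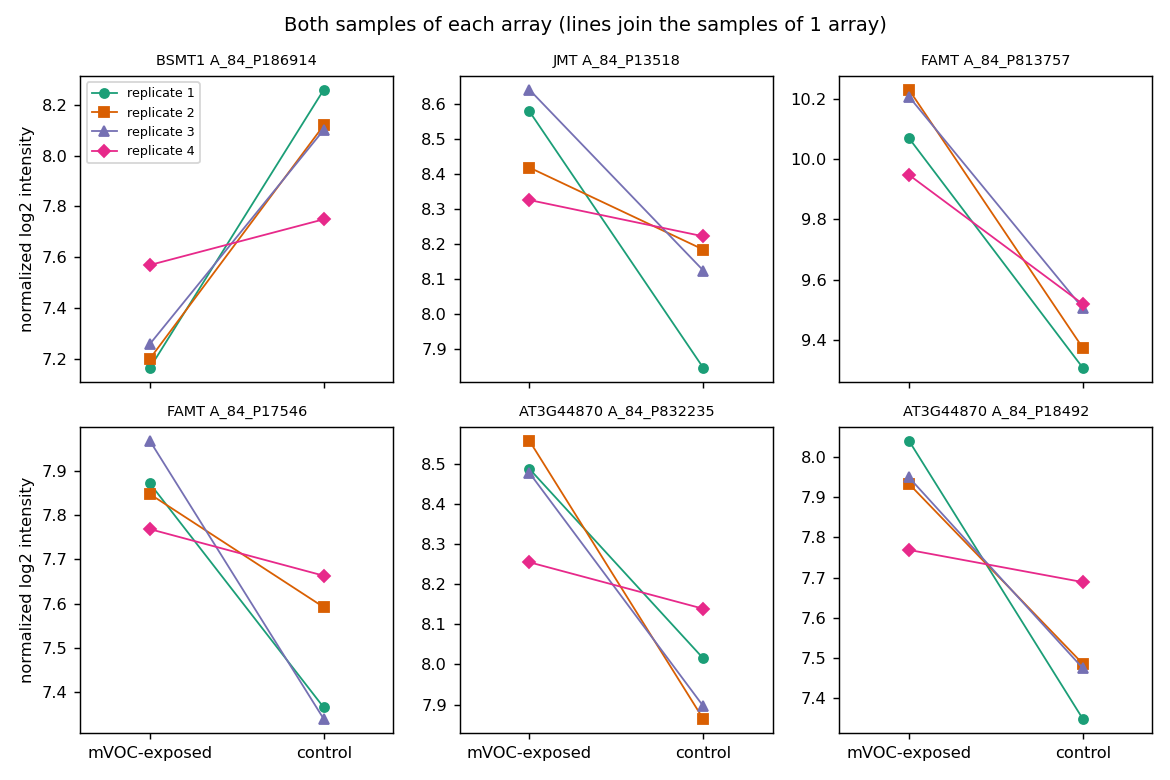
Normalized log2 intensity (vertical axis, a separate scale in each panel) of 6 member probes in the mVOC-exposed sample and the control sample of each array, with a line joining the samples of 1 array. The mVOC-exposed samples all lie below the control samples for BSMT1 and all above them for the other 5 probes, and the line of replicate 4 is the flattest in each panel.

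*PXMT1*, an enzyme that methylates a xanthine derivative in vitro, and *NAMT1*, which methylates nicotinate, stayed much closer to their control levels. *PXMT1* probe A_84_P210278 had log2 ratios of 0.30, 0.34, 0.05 and 0.08, with a mean of 0.19 ± 0.15 (SD, n = 4) or 1.14-fold, and its groups overlapped. The mean was 0.32 on slide 1, which held replicates 1 and 2, and 0.06 on slide 2, which held replicates 3 and 4. Without the marked spots the log2 ratio of replicate 4 was 0.32 and that of replicate 3 was still 0.05. The probe was not called without replicate 1 (mean 0.16) or without replicate 2 (mean 0.14). The second *PXMT1* probe, A_84_P824281, had a mean of 0.02 ± 0.10, higher on 1 array and lower on 3. *NAMT1* had a mean of 0.10 ± 0.07 (SD, n = 4), was higher on all 4 arrays and overlapped between groups.

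*IAMT1* methylates the auxin indole-3-acetic acid and is known for its part in leaf shape. Its probes lay on opposite sides of 0, with a mean log2 ratio of 0.08 ± 0.14 for A_84_P19743, higher on 3 arrays, and of -0.11 ± 0.12 for A_84_P837804, lower on 3 arrays. The groups overlapped for both. Without the marked spots A_84_P837804 had a mean of -0.16 ± 0.12 and was called lower (limma adjusted p = 0.0396). It was also called lower with median centring (-0.22, limma adjusted p = 0.0332). *GAMT1* and *GAMT2* methylate gibberellins and are known for their expression in developing seeds. *GAMT1* was not well above background with either probe in any sample, so no fold is given for it. *GAMT2* was well above background in all 8 samples, with a log2 intensity of 7.39, 7.38, 7.33 and 7.29 in mVOC-exposed samples, against 7.22, 7.23, 7.26 and 7.28 in control samples. Its values did not overlap between the groups but nearly met on replicate 4, and its mean log2 ratio was 0.10 ± 0.08 (SD, n = 4), and it was -0.04 with median centring. Of 9 probes of 5 seed marker genes, for storage proteins and oleosin, 4 were called lower and none higher, beside 8.58% and 9.62% of all probes. The *GAMT2* probe was not called. The means of the seed probes ran from -1.82 to 0.00, and their part in the *GAMT2* value was not tested. AT5G66430, for which no role is given here, was not well above background in any sample.

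**Figure D3:**
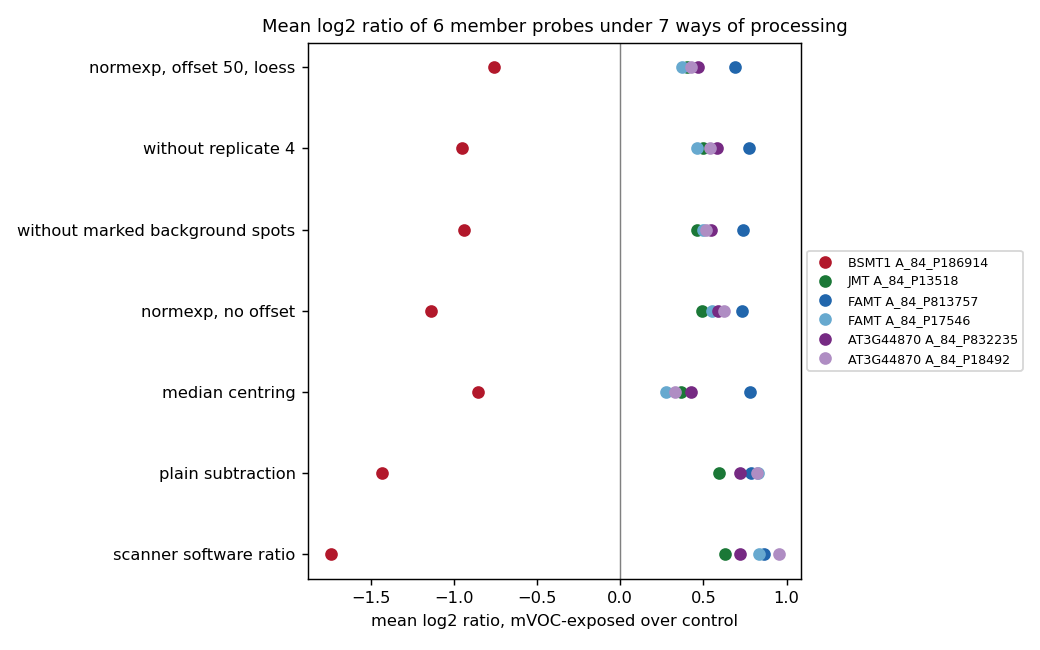
Mean log2 ratio of mVOC-exposed over control seedlings (horizontal axis) of 6 member probes under the main processing and 6 alternatives (rows), with 1 point per probe. BSMT1 stays left of 0 in every row and spreads from -0.76 to -1.74, while the other 5 probes stay right of 0.

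The other 14 SABATH loci, most of which have no established substrate, were set beside the members as the rest of the family. Of their 17 probes, 2 were called higher and 2 lower, beside 9.62% and 8.58% of all probes, with a median log2 ratio of 0.01. AT1G15125 had a lower probe, A_84_P106016, whose log2 intensity was 8.23, 8.40, 8.15 and 8.43 in mVOC-exposed samples, against 8.68, 8.73, 8.52 and 8.52 in control samples (mean log2 ratio -0.31 ± 0.15, SD, n = 4, limma adjusted p = 0.00236). The second probe of that locus, A_84_P836406, had a mean of 0.10 ± 0.08 (limma adjusted p = 0.159). AT5G04380, the direct neighbour of *NAMT1*, was well above background in no mVOC-exposed sample and in 2 of 4 control samples. It was called lower in mVOC-exposed seedlings (limma adjusted p = 0.0171), but the size of the difference is not settled. Its mean log2 ratio was -0.21 in the main processing, -1.01 with plain subtraction and -2.49 in the scanner software's ratio. AT4G36470 was 1.13-fold higher (log2 ratio 0.18 ± 0.11, SD, n = 4, limma adjusted p = 0.0210) and AT5G38100 was 1.11-fold higher with 1 of its 3 probes, A_84_P855542 (0.15 ± 0.11, limma adjusted p = 0.0480). The other probes of AT5G38100 had means of 0.10 ± 0.06 (A_84_P549559) and -0.06 ± 0.10 (A_84_P834930) and were not called. The call of AT4G36470 was lost without replicate 1 (log2 ratio 0.14) or 4 (0.18), that of AT5G38100 without replicate 1 (0.18), 3 (0.11) or 4 (0.13), and that of AT5G04380 without replicate 1 (-0.19) or 3 (-0.17).

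The MES methylesterases include enzymes that hydrolyse esters made by SABATH enzymes. Of 26 probes for 20 loci, 2 were called higher and 3 lower, beside 9.62% and 8.58% of all probes, with a median log2 ratio of 0.04. *MES7*, an esterase of methyl salicylate, rose by probe A_84_P837280, where the log2 ratios were 0.17, 0.21, 0.43 and 0.19 (mean 0.25 ± 0.12, SD, n = 4, limma adjusted p = 0.00515). Its second probe, A_84_P22044, had log2 ratios on both sides of 0 and a mean of 0.01 ± 0.15. *MES17*, an esterase of methyl indole-3-acetate, rose by 0.21 ± 0.19 (limma adjusted p = 0.0357), higher on 3 of 4 arrays. *MES11* fell by 0.23 ± 0.13 (limma adjusted p = 0.00797) with 1 of its 2 probes, a call lost with median centring, and *MES15* fell by 0.19 ± 0.17 (limma adjusted p = 0.0415). *MES10*, an esterase of methyl jasmonate, fell by 0.14 ± 0.05 with probe A_84_P22219 (limma adjusted p = 0.0373), which was higher, by 0.16, with median centring. Its second probe, A_84_P787846, had a mean of 0.07 ± 0.15 and was not called. The call of *MES17* was lost without replicate 1 (log2 ratio 0.21), 3 (0.14) or 4 (0.18), that of *MES15* without replicate 1 (-0.19) or 2 (-0.11), and that of *MES10* without replicate 1 (-0.15), 3 (-0.13) or 4 (-0.13).

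The substrates of SABATH enzymes can also be conjugated or oxidised, and some transcripts for these routes are given beside the family. Among the genes that oxidise or conjugate jasmonate, 3 probes rose and 2 fell of 13 for 9 loci, beside 9.62% and 8.58% of all probes, with a median of 0.04. *JOX3*, a jasmonate oxidase, had a log2 intensity of 8.61, 8.59, 8.66 and 8.34 in mVOC-exposed samples, against 7.35, 7.43, 7.51 and 8.08 in control samples, and rose 1.94-fold (log2 ratio 0.96 ± 0.47, SD, n = 4, limma adjusted p = 0.000255). *JOX4*, of the same family of oxidases, rose 1.59-fold (0.67 ± 0.35, limma adjusted p = 0.000535). With plain subtraction the log2 ratios of *JOX3* and *JOX4* were 1.61 and 1.20, and in the scanner software's ratio they were 1.92 and 1.38. *ST2A*, which sulfates hydroxyjasmonate, rose by 0.18 ± 0.13 with probe A_84_P800880 (limma adjusted p = 0.0277), a call lost without replicate 1 (0.19), 2 (0.17) or 3 (0.13) and with median centring (0.03) and in the scanner software's ratio (0.51). Its second probe, A_84_P16777, had a mean of 0.03 ± 0.11, higher on 2 arrays and lower on 2. *JAR1*, which joins jasmonate to isoleucine, fell by 0.30 ± 0.15 with probe A_84_P817213 (limma adjusted p = 0.00271) and by 0.18 ± 0.10 with A_84_P817225 (limma adjusted p = 0.0229), while its probe A_84_P18264 had a mean of 0.11 ± 0.03.

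Of 6 probes for 5 genes of salicylate conjugation and hydroxylation, 1 rose and 2 fell, beside 9.62% and 8.58% of all probes, with a median of -0.11. *S3H*, a salicylate hydroxylase, had a log2 intensity of 10.10, 10.07, 9.77 and 9.94 in mVOC-exposed samples, against 9.55, 9.61, 9.57 and 9.60 in control samples, and rose 1.31-fold (log2 ratio 0.39 ± 0.15, SD, n = 4, limma adjusted p = 0.000621). *UGT74F2*, a glucosyltransferase of salicylate, fell by 0.32 ± 0.12 (limma adjusted p = 0.00106), a call lost with median centring (-0.11). *UGT76B1*, another glucosyltransferase, fell by 0.18 ± 0.12 with probe A_84_P74014 (limma adjusted p = 0.0274) but had a log2 ratio of 0.03 with median centring, and its call was lost without replicate 1 (-0.16) or 2 (-0.13). Its second probe, A_84_P822840, had a mean of -0.11 ± 0.07 and was not called. Of 9 probes for 8 genes of auxin conjugation and oxidation, 3 fell, beside 8.58% of all probes, namely that of *GH3.17* by 0.31 ± 0.09 (limma adjusted p = 0.000905) and both of *GH3.5*, by 0.19 ± 0.06 (limma adjusted p = 0.00958) and 0.18 ± 0.12 (limma adjusted p = 0.0223). GH3 enzymes join auxin to amino acids. The call of *GH3.5* probe A_84_P784459 was lost without replicate 1 (-0.17) and with median centring, as was that of *GH3.17* with median centring (-0.14). None of the 7 probes for 6 gibberellin 2-oxidases was called by limma, and their log2 ratios lay between -0.08 and 0.07.

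S-adenosylmethionine, the methyl donor, is made by the synthetases *SAM1*, *SAM2*, *MAT3* and *MAT4*, and its spent form is cleared by *SAHH1*, *SAHH2* and the adenosine kinases. Of 24 probes for these 8 loci, 10 were called lower and 1 higher, beside 8.58% and 9.62% of all probes. Their median log2 ratio was -0.12. With median centring, however, 9 were called higher and none lower, beside 8783 and 8417 of all 43603 probes, and the median was 0.14. The list therefore has no settled direction. These transcripts are bright, and all 24 probes were well above background in every sample. *MAT4* probe A_84_P803620 had log2 ratios of -0.31, -0.25, -0.51 and -0.40 (mean -0.37 ± 0.11, SD, n = 4, limma adjusted p = 0.000459), and -0.15 with median centring, where its call was lost. Of the 4 probes of *MAT4*, 2 were called. *MAT3* probe A_84_P10692 had a mean of -0.26 ± 0.17 and *SAM1* probe A_84_P13370 of -0.25 ± 0.17. Both were higher with median centring, at 0.10 and 0.09, and the call of this *SAM1* probe was lost without replicate 4 (-0.20). The other *SAM1* probes were also called lower, A_84_P861397 at -0.16 ± 0.05 (limma adjusted p = 0.0218) and A_84_P807686 at -0.15 ± 0.09 (limma adjusted p = 0.0422). The probes of *SAHH1* went both ways, with -0.25 ± 0.05 for A_84_P808302 (limma adjusted p = 0.00209, and 0.02 with median centring) and 0.16 ± 0.02 for A_84_P808322 (limma adjusted p = 0.0172). The call of A_84_P808322 was lost without replicate 1 (0.16) or 4 (0.17). *SAHH1* probe A_84_P21469 was also called lower (-0.18 ± 0.08, limma adjusted p = 0.0157).

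**Figure D4:**
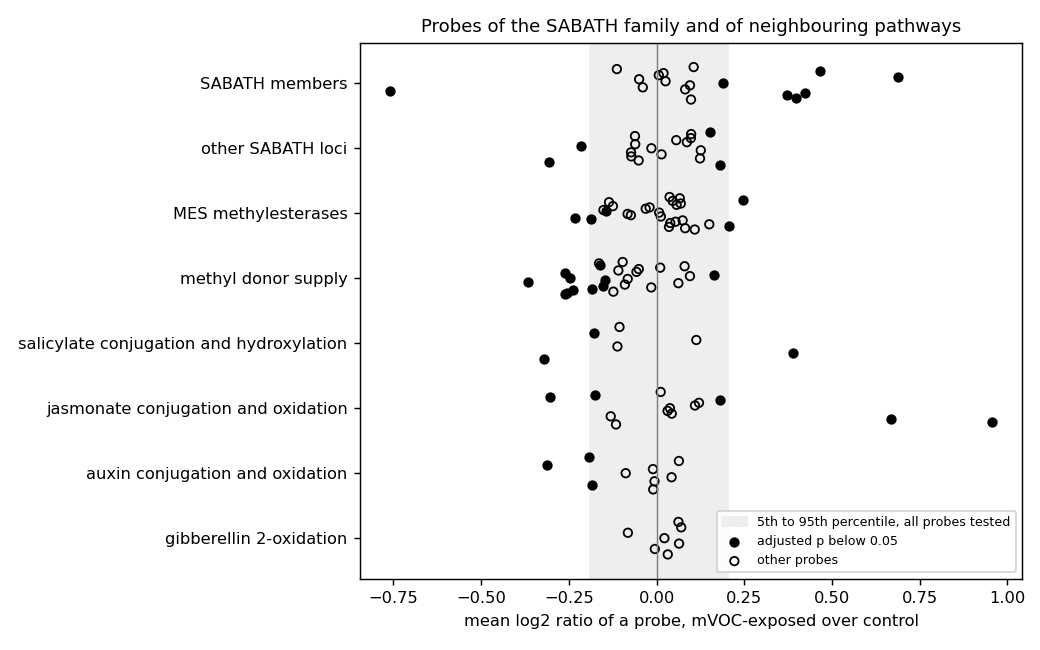
Mean log2 ratio of mVOC-exposed over control seedlings (horizontal axis) for every probe of the SABATH members and of 7 further lists (rows), filled where limma's adjusted p was below 0.05, over a grey band from the 5th to the 95th percentile of all probes tested. BSMT1 is the leftmost point at -0.76, and JOX3 at 0.96 and FAMT at 0.69 are the points farthest right.

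The genes whose 4 log2 ratios were most like those of *BSMT1* were sought by the root mean square difference from its probe, among 30008 probes of other loci that were well above background in either sample on all arrays. AT5G05220 was the nearest, with log2 ratios of -1.10, -1.08, -0.82 and -0.13 and a difference of 0.0855. *SESA2*, a seed storage albumin, had -0.90, -0.92, -0.84 and -0.10 and a difference of 0.106. It was well above background in 1 of 4 mVOC-exposed samples. Its ratios from the scanner software were -2.81, -3.56, -2.50 and -3.13, against -1.91, -1.84, -1.53 and -1.69 for *BSMT1*. *HSFA2*, a heat shock transcription factor, had -0.97, -0.92, -0.69 and -0.35 and a difference of 0.132. *DIN11*, an oxygenase named for its induction in darkness, differed by 0.143 and AT5G04120 by 0.157. Likeness was measured with replicate 4 included, whose ratios over all probes were closer to 0 than those of the other arrays. It was sought in the main processing alone, where the offset makes ratios of dim probes smaller.

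The labelled tissue was checked against its markers. All 37 probes of 5 leaf genes of photosynthesis were well above background in every sample, and 5 of 6 probes of 5 root genes were. Of the 37 leaf probes, 16 were called higher and 7 lower, beside 9.62% and 8.58% of all probes. All those called higher belonged to *RBCS1A* and *CAB1*, and those called lower to *CAB1*, *RCA* and *LHCA3*. The probes of *CAB1* thus went both ways. In control samples those called higher had mean log2 intensities of 17.16 to 17.33, and those called lower of 12.66 to 16.32. With the scanner software's ratio 10 leaf probes were called higher and 10 lower, beside 6484 and 6752 of all 43603 probes. With median centring 29 were called higher and none lower, beside 8783 and 8417 of all 43603 probes. Among the root markers 2 probes were called lower and none higher, and *EXPA7*, an expansin of root hairs, had a log2 ratio of -0.57 ± 0.13 (SD, n = 4). Among the seed markers 4 of 9 probes were called lower, with *CRU3* probe A_84_P11966, for a cruciferin, at -2.28, -2.24, -2.22 and -0.55 on replicates 1 to 4. The scanner software's ratio for that probe was -3.53, -3.76, -3.57 and -3.29. The second *CRU3* probe, A_84_P807923, had a mean of -0.07 ± 0.05 and was not called. Not every seed probe was lower throughout: *CRU2* probe A_84_P811756 was higher on 3 arrays. *BSMT1* was lower on all 4 arrays, and the part of seed transcripts in its value was not tested.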

How the data were processed

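The authors deposited the scanner output of Agilent Feature Extraction 11.5.1.1 for each array, with a linear, not normalized median intensity for every spot and for the background around it. A log10 ratio (Cy5 over Cy3) that the software made after subtracting background and normalizing dyes was deposited with it. The deposited series values repeat it as log10 for replicates 2 to 4, whereas for replicate 1 they hold the error of that ratio (median 0.0619), which was not used. Exposure time and age come from the text of the study, whereas the labels speak of samples taken at different times.

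From the median intensities, background was corrected with normexp (offset 50, all spots), loess was run within each array (control and outlier spots had weight 0 and were then left out), and spots sharing a probe were averaged (R 4.3.3, limma 3.58.1, data.table package at 1.17.8, jsonlite 2.0.0). The offset brings ratios of dim probes closer to 0. For 43603 probes, the 4 log2 ratios entered a limma model with an intercept alone, followed by eBayes. The steps were tested on simulated data. Files gave a locus for 38413 probes and none for 5190. RefSeq (TAIR10.1) held 28595 of 29030 loci and was used for names and neighbours. No coordinates are given, since its assembly differs from the build in the files. The *BSMT1* probe sequence comes from the supplement of the study.

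Each array pairs its samples: deviations from the group means correlated within arrays with r of 0.442, 0.513, 0.245 and 0.411. Labels do not say whether replicates were separate cultures beyond the words biological replicate. Named were all member probes and, in each further list, up to 4 called loci per direction by size. The members and lists were chosen with earlier results of these data known. Alternatives covered background, normalization, filters, variance model, pairing, slide and each replicate. For probes of the further lists they were added after seeing the data.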

Additional observations from a re-analysis of the deposited data

Results flagged for a closer look

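Among 40 probes tested for an array far from the other 3, 3 had one by Dixon's criterion (above 0.829 of the range), and chance gives about 1 in 20. AT5G66430 had a log2 ratio of -0.20 on replicate 1, while the other arrays lay between 0.00 and 0.03, and the probe was not well above background in any sample. *JOX3* had a log2 ratio of 0.26 on replicate 4, while the other arrays lay between 1.15 and 1.25. In the scanner software's ratio its arrays lay at 1.97, 1.87, 1.86 and 1.97, with replicate 4 among the others, and without the spots marked for non-uniform background the mean was 1.16, against 0.96. *MES7* probe A_84_P837280 had 0.43 on replicate 3, while the other arrays lay between 0.17 and 0.21.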

How the results depend on the processing

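Across 18 alternatives, the 6 probes of *BSMT1*, *JMT* (A_84_P13518), *FAMT* and AT3G44870 kept their direction, and each was called in 15 or 16 of them. The alternatives reuse the same arrays, and the loci were chosen with this comparison known. The counts therefore describe the processing and test nothing about the loci. *PXMT1* probe A_84_P210278 was called in 9. Against 7 member probes called in the main processing, 0 were called by limma with normexp without an offset (8 at an unadjusted p under 0.05) and 0 with ordinary variance (4 at an unadjusted p under 0.05). With probes averaged per locus, 4 of 10 loci were called. The share of all loci called with that averaging is not given here, and nothing is read from this count. Leaving out each replicate gave 6 to 7 member calls. Without the spots marked for non-uniform background, 6 member probes were called higher and 2 lower, those of *BSMT1* and *IAMT1* (A_84_P837804). Of all 43550 probes tested in that way, 5242 were called higher and 4983 lower. Over all probes 7939 were called, against 3352 with plain subtraction, 20 with no offset, 13236 with the scanner software's ratio, 17200 with median centring, 6 with ordinary variance and 4401 to 6644 leaving out each replicate. Without the pairing of samples on an array (no replicate block), 3815 were called in all, with 5 member probes higher and 1 lower. Centring on the median moved *MAT3* to 0.10, *SAM1* to 0.0873, *SAHH1* (A_84_P808302) to 0.0196, *UGT76B1* to 0.0271 and *MES10* to 0.16, each against a lower value in the main processing, and the cause was not tested. Of the 23 probes named from the further lists, 12 were called without each replicate in turn. Low signal over background limits the size of the *BSMT1*, *GAMT1* and AT5G66430 ratios. The same holds for other dim probes, among them *FAMT* probe A_84_P17546 and AT3G44870 probe A_84_P18492. Their means were 0.37 and 0.42 in the main processing, against 0.83 and 0.95 in the scanner software's ratio.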
